A study of Mus musculus with 6 samples.

Results

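The Reg (regenerating islet-derived) genes Reg1, Reg2, Reg3a, Reg3b, Reg3d and Reg3g were followed across 6 RNA sequencing libraries of mouse pancreatic islets. The members were the gene rows carrying these symbols, 6 of 23179 rows, and each symbol stood on 1 row. The mice were male C57BL/6J animals aged 10 to 14 weeks. They either lacked Ffar3, the gene for a receptor of short-chain fatty acids (genotype Ffar3-/-, KO, 3 libraries), or were wild type (WT, 3 libraries). Each library was made from islets pooled from 2 pancreata, and no treatment is given for either group. Levels are given in FPKM, a fragment count divided by the transcript's length and by a measure of the library's size. Levels of different genes can thus be set beside each other. The sources used here do not say how the Ffar3 allele was made or whether KO and WT mice were littermates.

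Reg genes encode small secreted proteins with a C-type lectin domain. They were named for a gene found in regenerating islets of the rat, yet in the healthy pancreas they are made largely by the acinar cells, the cells that surround the islets and secrete digestive enzymes. Levels of several members rise sharply in pancreatitis and after tissue injury, where interleukin-6 and interleukin-22 act through the transcription factor STAT3. Reg1 and Reg2 encode the pancreatic stone proteins of the mouse, Reg3b the pancreatitis-associated protein, Reg3g a lectin that kills Gram-positive bacteria in the gut, and Reg3d a relative of the islet neogenesis-associated protein of the hamster. EXTL3, encoded by Extl3, has been proposed as a receptor of Reg proteins.

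The check of the labels and the make-up of the libraries bear on every result. Ffar3 itself measured 0, 0 and 0.105 FPKM in the KO libraries, against 4.69, 5.26 and 6.68 FPKM in the WT libraries. The 33 acinar genes of a marker list were all in the data, and none was listed at 0 in every library. The amylase gene Amy2a5 was nevertheless at 0 in KO replicates 2 and 3 and WT replicates 1 and 3. It measured 5.06 FPKM in KO replicate 1 and 33.4 FPKM in WT replicate 2. The 33 genes summed to 26723, 268512 and 570659 FPKM in KO replicates 1, 2 and 3, against 44841, 28550 and 40109 FPKM in WT replicates 1, 2 and 3. KO replicate 1 thus lay just below the lowest WT library, and KO replicates 2 and 3 lay far above all of them. In bulk RNA, more acinar cells and more acinar RNA per cell cannot be told apart. Summed B and plasma cell markers were at 427, 499 and 417 FPKM in KO islets, against 294 to 311 FPKM in WT. Most of this sum was Xbp1, which other secretory cells also express. Without it, a choice made after its values were seen, the sums were 88.8, 172 and 17.5 FPKM in KO replicates 1, 2 and 3 and 7.11 to 8.26 FPKM in WT. The macrophage gene Lyz2, named after its values were seen, was likewise highest in KO replicate 2. It measured 32.9, 94.8 and 10.3 FPKM in KO, against 9.51 to 11.5 FPKM in WT (limma adjusted p = 0.10). The macrophage list did not rise as a whole. Of its 11 tested genes, 0 were called higher and 1 lower in KO, against 20.3% and 19.6% of all tested genes. The gene called lower was C1qa, at 50.1, 42.5 and 37.2 FPKM in KO, against 51.5 to 58.8 FPKM in WT. The part of immune cells in the results was not tested. The islet hormone gene Gcg measured 6474 to 12436 FPKM in KO and 18617 to 22807 FPKM in WT, and Sst was also abundant in all libraries, but Ins2 was listed at 0 throughout and Ins1 in all but KO replicates 2 and 3. By the most frequent ratio among the lowest values, 1 fragment was worth 1.68 times as many FPKM in KO replicate 3 as in WT replicate 1, so low levels there rest on the fewest fragments.

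The 6 genes lie side by side on chromosome 6 (positions from GENCODE M21, build GRCm38, which is mm10), within 98.2 kb. From left to right they are Reg3b (78370657 to 78373466, plus strand), Reg3d (78375874 to 78378865, minus strand), Reg3a (78380709 to 78383827, plus strand), Reg2 (78395623 to 78408106, plus strand), Reg1 (78422711 to 78428667, plus strand) and Reg3g (78466269 to 78468872, minus strand). Each is protein-coding, and the first listed transcript of each has 6 exons. Gaps between neighbours ran from 1.84 kb, between Reg3d and Reg3a, to 37.6 kb, between Reg1 and Reg3g. The transcripts of the family are alike but not near-identical. Reg3b and Reg3g shared 67.7% of aligned positions, as did Reg1 and Reg2, and these were the most alike pairs of 15. The longest run of bases that any 2 members shared was 35, between Reg3b and Reg3g. Fragments of such a stretch could be assigned to either gene, and the sources used here give no read length.

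The start regions are shown for 4 members, because they stand for the patterns described further on. Reg1 had the profile closest to those of acinar enzymes, Reg2 and Reg3b varied widely among the WT libraries, and Reg3d lay between. Each sequence runs from 250 bases before to 50 bases after the gene's start, 5′ to 3′ along the gene, from RefSeq on GRCm38.p6. Capitals mark 2 motifs, CACCTG, the E-box bound by the acinar factor PTF1, searched on both strands, and TATAAA, the core promoter element, searched on the gene's strand only. The windows are chr6:78425733-78426032 (plus strand) for Reg1, chr6:78404905-78405204 (plus strand) for Reg2, chr6:78370635-78370934 (plus strand) for Reg3b and chr6:78378816-78379115 (minus strand) for Reg3d. The RefSeq starts of Reg1, Reg2 and Reg3b lie inside the spans that GENCODE gives these genes.
Reg1: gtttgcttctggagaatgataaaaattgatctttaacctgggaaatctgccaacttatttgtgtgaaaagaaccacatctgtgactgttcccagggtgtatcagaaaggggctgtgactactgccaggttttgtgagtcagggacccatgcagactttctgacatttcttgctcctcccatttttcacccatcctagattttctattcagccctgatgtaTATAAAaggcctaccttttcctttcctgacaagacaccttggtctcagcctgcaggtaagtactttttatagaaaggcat
Reg2: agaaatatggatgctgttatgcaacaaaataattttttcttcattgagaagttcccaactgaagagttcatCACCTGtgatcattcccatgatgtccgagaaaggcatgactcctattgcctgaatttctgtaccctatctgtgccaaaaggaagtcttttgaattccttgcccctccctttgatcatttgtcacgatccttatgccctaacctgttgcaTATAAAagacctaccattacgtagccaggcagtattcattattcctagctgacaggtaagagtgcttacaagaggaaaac
Reg3b: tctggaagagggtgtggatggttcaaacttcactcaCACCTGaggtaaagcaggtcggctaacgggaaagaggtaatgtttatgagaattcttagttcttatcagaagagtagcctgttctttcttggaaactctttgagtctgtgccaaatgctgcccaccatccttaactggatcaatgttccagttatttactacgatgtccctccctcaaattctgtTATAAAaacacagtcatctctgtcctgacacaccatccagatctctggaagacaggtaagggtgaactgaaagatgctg
Reg3d: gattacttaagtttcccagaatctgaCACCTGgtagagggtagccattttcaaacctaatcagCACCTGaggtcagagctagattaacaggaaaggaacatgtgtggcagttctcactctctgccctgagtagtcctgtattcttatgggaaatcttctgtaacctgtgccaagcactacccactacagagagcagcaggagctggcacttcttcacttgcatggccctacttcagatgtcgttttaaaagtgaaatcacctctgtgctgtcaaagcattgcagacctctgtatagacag

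CACCTG was found in the windows of Reg2, Reg3a, Reg3b and Reg3d, with 2 matches in Reg3d, and not in those of Reg1 and Reg3g. Of 32851 windows of this length over all genes, 20.2% held it. TATAAA was found in Reg1, Reg2, Reg3b and Reg3g, starting 27 to 30 bases before the gene's start, and 8.32% of all windows held it. The 7-base TTTCCCA, the other element of the PTF1 site, was in the windows of Reg1, Reg3d and Reg3g on either strand, against 8.06% of all windows. TTCNNNGAA, the shape of a STAT site, was in those of Reg3b and Reg3d, against 8.30% of all windows. A match describes the letters and is not evidence of binding.

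All 6 members were highest in KO replicate 3, and among the WT libraries all 6 were highest in WT replicate 1. The summed acinar list was highest in the same libraries, and the share of all tested genes with this order was not counted. At a mean of at least 1 FPKM, 11669 genes were tested on log2(FPKM + 1) with limma, and all 6 members passed this filter. Of them, 1 (Reg3g) was called higher in KO at an adjusted p under 0.05, none was called lower and 5 were not called. Across all tested genes, 20.3% were called higher, 19.6% lower and 39.9% in either direction. The median log2 difference was 1.55 over the 6 members and -0.01 over all tested genes.

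**Figure D1:**
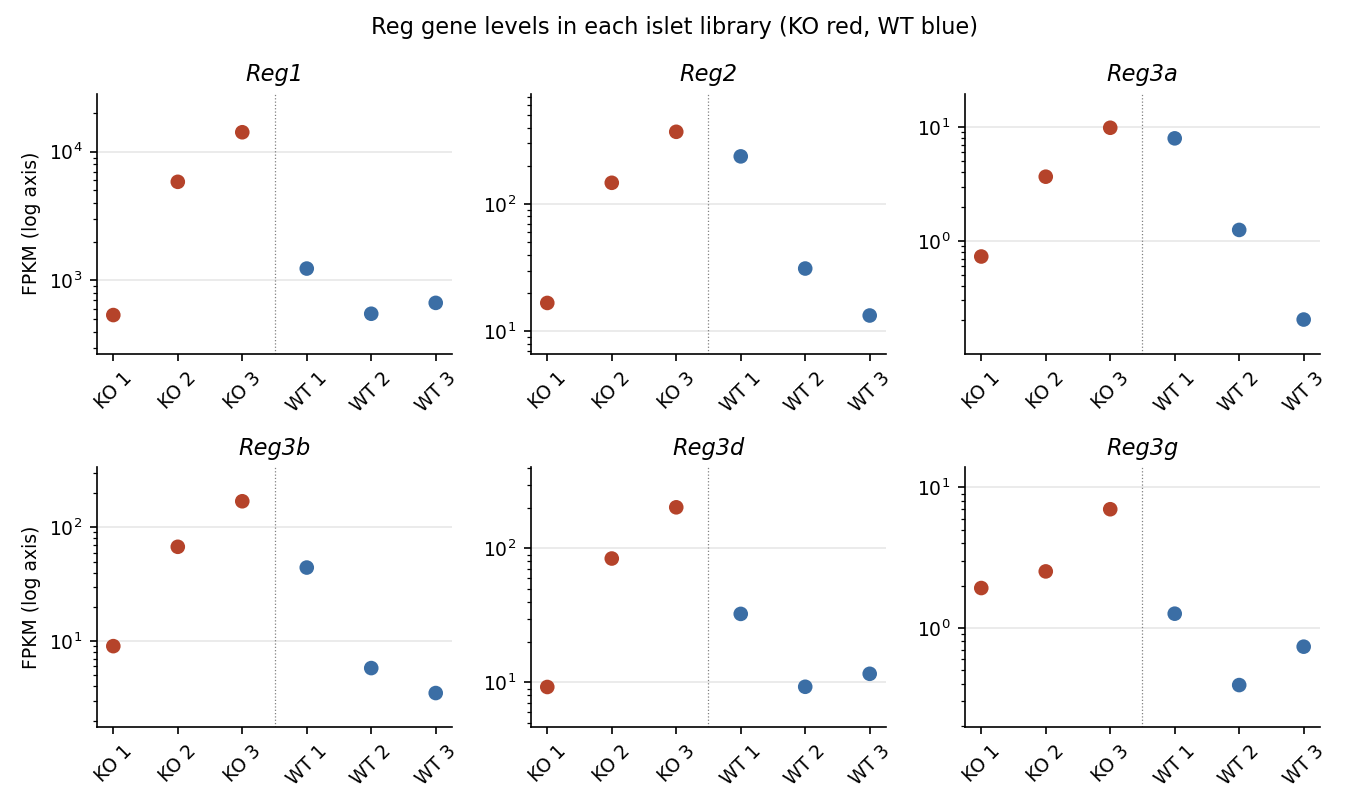
FPKM of each Reg gene in each of the 6 libraries, on log axes, with KO libraries in red at the left and WT libraries in blue at the right of each panel. In 5 panels the KO and WT points overlap, and only in that of Reg3g do the 3 KO points, from 1.92 to 7.00 FPKM, lie above the highest WT point of 1.26 FPKM.

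Reg1, the most abundant member, made up 93.5%, 95.0% and 94.9% of the summed Reg FPKM in KO replicates 1, 2 and 3, and 79.3%, 92.0% and 95.8% in WT replicates 1, 2 and 3. It measured 538, 5836 and 14169 FPKM in the KO libraries, against 1237, 551 and 669 FPKM in the WT libraries. KO replicate 1 lay just below all WT libraries and KO replicates 2 and 3 far above them, so the groups overlapped. The log2 difference was 2.20 (SE 1.10, limma adjusted p = 0.14, exact two-sided permutation p = 0.4, n = 3 per group). No exact test of 3 against 3 libraries can go below p = 0.1. Without KO replicate 1 the difference was 3.56 (limma adjusted p = 0.0018). KO replicate 1 set alone against WT gave -0.52 (limma adjusted p = 0.38).

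Reg2, the neighbour of Reg1 and its closest relative in sequence, measured 16.7, 147 and 370 FPKM in KO replicates 1, 2 and 3, against 237, 31.2 and 13.3 FPKM in WT replicates 1, 2 and 3. WT replicate 1 exceeded KO replicate 2, and the WT libraries spanned 17.8-fold. The log2 difference was 1.05 (SE 1.34, limma adjusted p = 0.55, exact permutation p = 0.7, n = 3 per group), which is smaller than its error. The ratio of Reg1 to Reg2 was 32.2, 39.7 and 38.3 in the KO libraries, against 5.21, 17.7 and 50.3 in the WT libraries. The ratio thus varied far less among the KO than among the WT libraries.

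Of the Reg3 genes, Reg3d and Reg3b were the higher. Reg3d measured 9.24, 84.1 and 203 FPKM in the KO libraries, against 32.5, 9.28 and 11.6 FPKM in WT (log2 difference 1.79, SE 1.04, limma adjusted p = 0.20). Its groups overlapped in the way of Reg1, with KO replicate 1 just below the WT libraries. Reg3b measured 9.03, 67.4 and 169 FPKM in the KO libraries, against 44.3, 5.79 and 3.49 FPKM in WT (log2 difference 2.13, SE 1.19, limma adjusted p = 0.18). KO replicate 1 lay above WT replicates 2 and 3 and below WT replicate 1. When KO replicate 1 was left out, 2890 of 11669 tested genes were called higher. Reg3d and Reg3b were among them, with log2 differences of 3.02 and 3.28 (limma adjusted p = 0.0065 and 0.032). In KO replicate 1 alone the values were -0.67 and -0.15, and neither was called.

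Reg3a and Reg3g were the 2 members of lowest level. Reg3a measured 0.729, 3.66 and 9.86 FPKM in the KO libraries, against 7.96, 1.25 and 0.204 FPKM in WT, with a 39.1-fold span among the WT libraries (log2 difference 0.62, SE 0.87, limma adjusted p = 0.59). Reg3g measured 1.92, 2.52 and 7.00 FPKM in the KO libraries, against 1.26, 0.390 and 0.733 FPKM in WT (log2 difference 1.31, SE 0.38, limma adjusted p = 0.031, exact permutation p = 0.1, n = 3 per group). It was the 1 member whose groups did not overlap, and 27.8% of all tested genes had every KO library above every WT library. In KO replicate 1, a single library, Reg3g was at 2.42 times the WT mean (log2 difference 0.73). Levels this low rest on few fragments, and the call of Reg3g was lost without any 1 of the WT libraries (limma adjusted p = 0.057, 0.10 and 0.093 without WT replicates 1, 2 and 3) and without KO replicate 2 (0.053). Without the filter on low values its limma adjusted p was 0.059, and with a robust variance prior 0.063.

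Set against the acinar transcripts of the same library, Reg1, Reg2, Reg3b and Reg3d differed little between the KO libraries, by 1.14-fold (Reg3d) to 1.35-fold (Reg3b) from the lowest to the highest. Per 1000 FPKM of the acinar list, Reg1 was at 20.1, 21.7 and 24.8 in KO replicates 1, 2 and 3, against 27.6, 19.3 and 16.7 in WT replicates 1, 2 and 3. Its KO libraries spanned 1.23-fold on this measure, against 26.3-fold between KO replicates 3 and 1 in FPKM. Reg3d was at 0.346, 0.313 and 0.356 per 1000 in KO, against 0.724, 0.325 and 0.289 in WT. Reg2 was at 0.625, 0.548 and 0.649 in KO, against 5.29, 1.09 and 0.332 in WT. Reg3b was at 0.338, 0.251 and 0.297 in KO, against 0.987, 0.203 and 0.0871 in WT. For all members but Reg3g, the KO values lay between the lowest and the highest WT value, and the highest was that of WT replicate 1. Without that library, every KO value of Reg1 and Reg3b lay above both remaining WT values, and those of only Reg2 and Reg3a still lay between them. How often other genes show such an order was not counted.

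**Figure D2:**
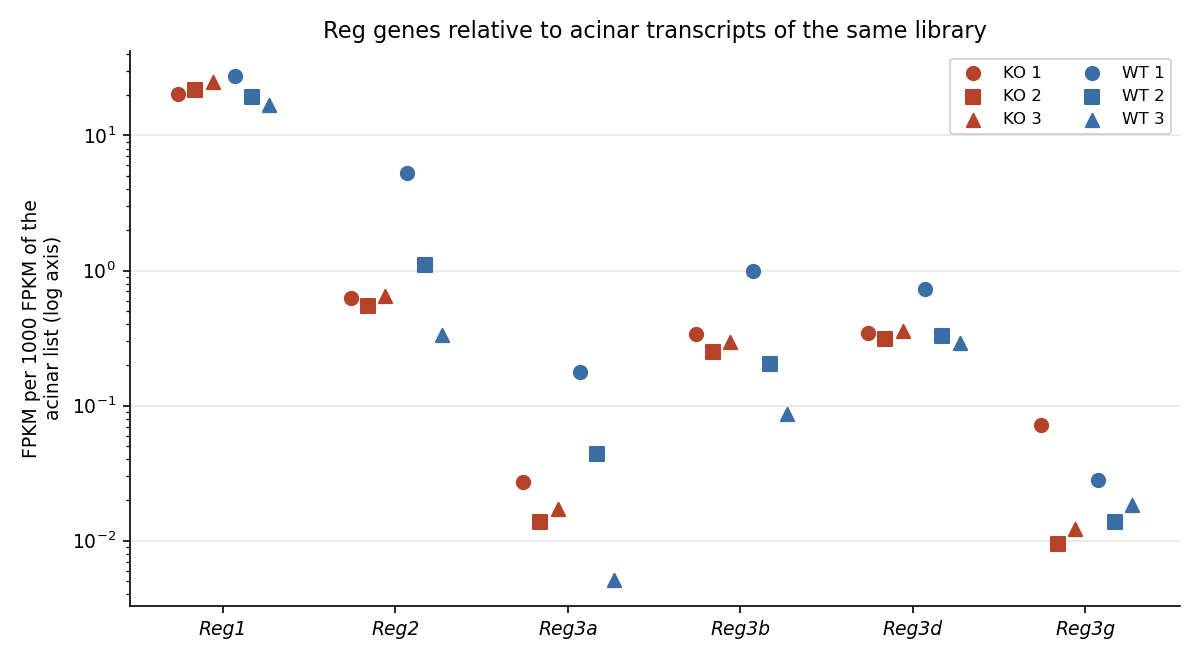
FPKM of each Reg gene per 1000 FPKM of the summed acinar list in the same library, on a log axis, with KO libraries in red to the left of WT libraries in blue and a marker shape for each replicate number. The KO points of Reg1, Reg2, Reg3b and Reg3d lie close together while WT replicate 1 lies highest for these genes, and for Reg3g it is KO replicate 1 that lies highest, at 0.0718.

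Reg3g was the exception on this measure. It was at 0.0718, 0.00939 and 0.0123 per 1000 in KO replicates 1, 2 and 3, against 0.0281, 0.0137 and 0.0183 in WT, so KO replicate 1 was highest and KO replicates 2 and 3 were lowest of the 6 libraries. Reg3a was at 0.0273, 0.0136 and 0.0173 in KO, against 0.178, 0.0437 and 0.00507 in WT. The same can be read from KO replicate 3 over KO replicate 1. Over the 25 acinar genes averaging 100 FPKM or more this ratio was 21.8 at the median and ran from 18.0 to 28.9. Reg1 (26.3), Reg2 (22.1), Reg3d (22.0) and Reg3b (18.7) lay inside that range, and Reg3a (13.5) and Reg3g (3.65) below it. KO replicate 3 over KO replicate 2 was at most 2.427 for these acinar genes. Reg3g (2.77), Reg3a (2.69), Reg2 (2.52) and Reg3b (2.51) lay above that, Reg1 (2.428) barely above it and Reg3d (2.41) below it. KO replicate 2 over KO replicate 1 was at least 8.82 for the same acinar genes, which Reg1 (10.8) and Reg3d (9.11) exceeded and Reg2 (8.80), Reg3b (7.46), Reg3a (5.03) and Reg3g (1.31) did not.

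The difference between KO and WT on the acinar scale was tested for each member as log2(FPKM + 1) minus the mean log2 acinar level of the library. It was 0.27 for Reg1, -0.88 for Reg2, -1.31 for Reg3a, 0.21 for Reg3b, -0.14 for Reg3d and -0.62 for Reg3g. The exact two-sided permutation p ran from 0.2 for Reg3a to 1 for Reg3d, and after adjustment over the 6 members none was below 1. With 0.1 FPKM added in place of 1, the log2 difference of Reg3g on this scale was 0.03 (exact permutation p = 0.9). When limma was given the acinar level as a covariate, 0 of 6 members were called, against 23.4% of all tested genes (13.4% higher, 9.98% lower). Only 1 KO library, replicate 1, had an acinar level close to that of WT. In KO replicate 1 alone against WT, 0 of 6 were called, against 26.1% of all tested genes (15.2% higher, 10.9% lower), and Reg3g was the only member above its WT mean there. This comparison takes the lone library to vary like the WT libraries.

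WT replicate 1 stood apart from the other WT libraries in the Reg genes and in little else. Reg2, Reg3b, Reg3a and Reg3d were there 7.61, 7.64, 6.38 and 3.50 times their level in WT replicate 2, and 17.8, 12.7, 39.1 and 2.80 times their level in WT replicate 3. The 25 abundant acinar genes had median ratios of 1.58 and 1.13 in the same comparisons. Reg1 was at 2.24 and 1.85 times its level in WT replicates 2 and 3, above the highest of those acinar genes (1.78 and 1.23). Of all 11669 tested genes, 6 (0.0514%) were at least 1 log2 unit higher in WT replicate 1 than in both other WT libraries on the log2(FPKM + 1) scale. These were Reg2 (2.89), Reg3b (2.74), Reg3a (1.99), Reg3d (1.41) and the non-coding RNA genes Snora52 and Snhg9. Reg1 missed this bound at 0.88, rank 8 of all tested genes, and Reg3g was at 0.38, rank 40. No gene was at least 1 log2 unit lower in WT replicate 1 than in both others. The same count of genes higher in 1 library was 4 for WT replicate 2 and 7 for WT replicate 3, with no Reg gene among either. The count of genes lower was 1 for WT replicate 2 and 7 (0.06%) for WT replicate 3, and Reg2 was among those 7. Without WT replicate 1, the limma log2 differences between KO and WT were 2.21 for Reg2, 3.14 for Reg3b, 1.43 for Reg3a and 2.31 for Reg3d, and none of these was called. On the acinar scale they were 0.54 for Reg1, 0.20 for Reg2, 1.14 for Reg3b, -0.57 for Reg3a and 0.30 for Reg3d. Every KO library lay above both WT libraries for Reg1, Reg3b and Reg3d, and the exact permutation p of each was 0.2, the smallest that 3 against 2 libraries can give. The share of all tested genes with this order was not counted, so nothing particular to these members can be read from it. The counts of genes past 1 log2 unit were made after the values were seen and carry no test.

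**Figure D3:**
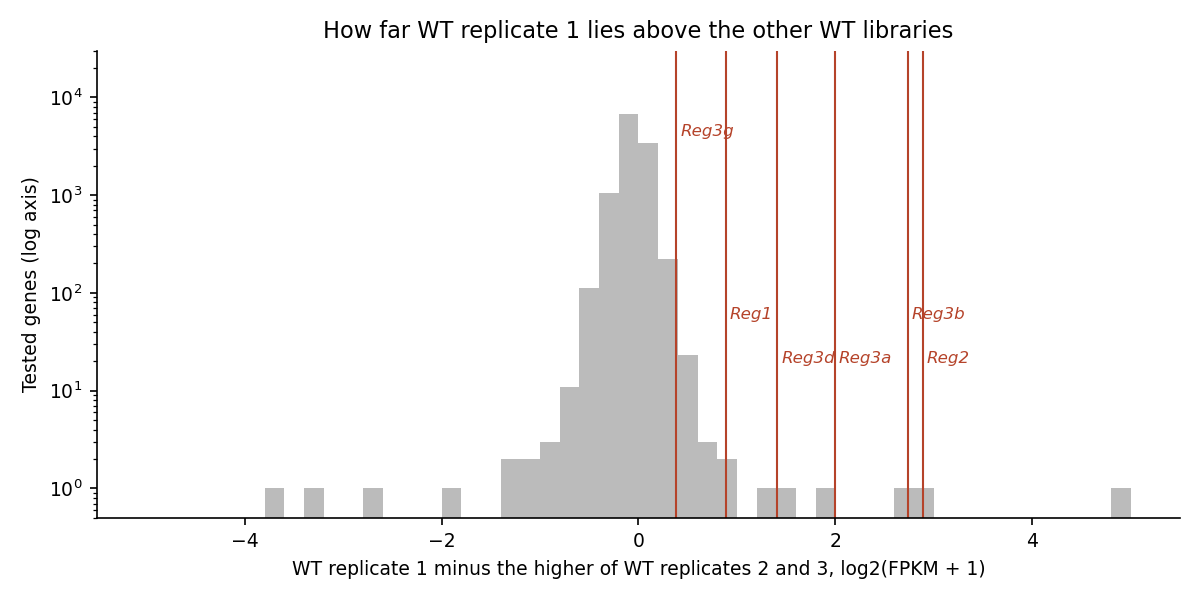
Histogram over the 11669 tested genes of how far WT replicate 1 lies above the higher of the other WT libraries, in log2(FPKM + 1), with the number of genes on a log axis and the Reg genes as red lines. Reg2 and Reg3b, at 2.89 and 2.74, lie far to the right of the bulk of the genes, and Reg3g at 0.38 near its edge.

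The 4 members past this bound sit next to each other at the left of the cluster, while Reg1 and Reg3g are the 2 rightmost genes. They are also the 4 whose start regions held CACCTG. Position, motif and level were each read from only 6 related genes, and no relation between them was tested. The summed levels of the cell type and pathway lists did not set WT replicate 1 apart in the same way. Over 16 lists, its sum was 0.83 to 1.12 times that of the higher of the other WT libraries, with the acinar list at the top.

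**Figure D4:**
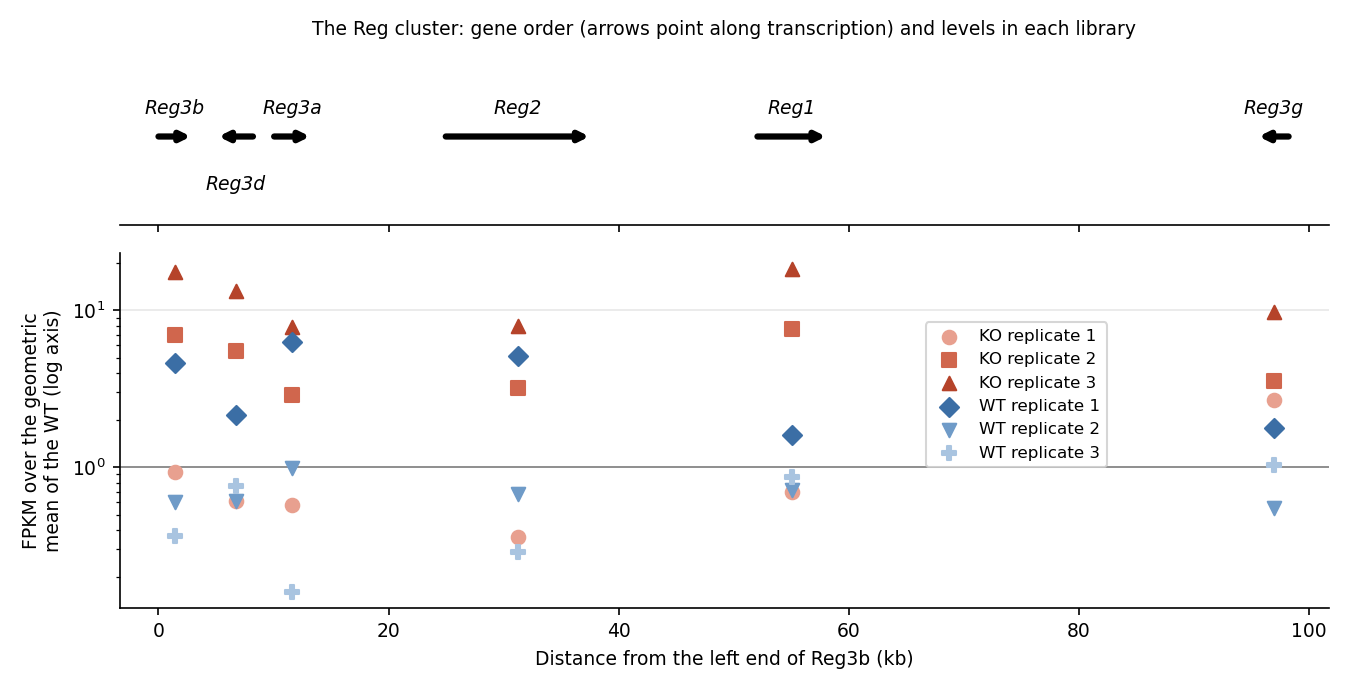
The Reg cluster, with gene arrows pointing along transcription and the distance from the left end of Reg3b in kb (above), and the FPKM of each gene in each library over the geometric mean of the 3 WT libraries, on a log axis (below). WT replicate 1 rises above this mean most for Reg3a, Reg2 and Reg3b and least for Reg1 (1.61) and Reg3g (1.77), while KO replicate 3 is the highest library for all 6 genes.

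The pairs most alike in sequence were not the pair most alike in profile. Profiles were compared as the root mean square difference over the 6 libraries of log2(FPKM + 1) taken relative to each gene's WT mean. The most similar pair was Reg1 and Reg3d, at 0.37, whose transcripts shared 54.2% of aligned positions. Reg3b and Reg3g, with 67.7% shared positions and the most similar start regions of all pairs (68.1% of aligned positions), were at 1.35. The least similar pair was Reg2 and Reg3g, at 1.44. Reg2 was closest to Reg3a, at 0.73.

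Among 10717 other genes compared, those most like Reg1 were Klk1b5, a kallikrein gene, and the acinar list genes Spink3, Cuzd1, Pnliprp2 and Try5, at 0.19 to 0.22. Those most like Reg3d were Dmbt1, which encodes a secreted scavenger receptor of epithelia, Sycn, Serpini2, Gamt and Ggt1, at 0.30 to 0.40. Reg3b, Reg3a and Reg2 had no close match. Their nearest genes were Dmbt1 at 0.85 for Reg3b and Itih4, a plasma protein gene, at 0.74 for Reg3a and 1.08 for Reg2. Those most like Reg3g were Perp, Cldn9, S100a16, Cryab and Adm2, at 0.25 to 0.29, and none of them is in the acinar list. Perp, a gene of desmosomal adhesion, measured 10.2, 19.5 and 32.8 FPKM in the KO libraries, against 7.77, 6.98 and 6.93 FPKM in WT. Small distances are easier to reach for genes of low level, since the added 1 FPKM compresses them.

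The proposed receptor gene Extl3 was higher in KO, at 12.4 ± 2.83 FPKM, against 8.17 ± 0.175 FPKM in WT (mean ± SD of 3 libraries each; log2 difference 0.52, SE 0.14, limma adjusted p = 0.026). KO values ran from 9.71 FPKM in replicate 1 to 15.3 FPKM in replicate 3, in the order of the acinar level, and did not overlap with WT. Given the acinar covariate, the log2 difference was 0.25 (limma adjusted p = 0.089), and in KO replicate 1 alone 0.22 (0.075). Reg4, the family member on another chromosome, was listed at 0 in all 6 libraries.

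Of the 23 listed cytokine and receptor genes upstream of Reg expression, 18 were tested. Of these, 8 rose and 4 fell, against 20.3% and 19.6% of all tested genes, with a median log2 difference of 0.44 against -0.01 over all tested genes. Tnfrsf1a, a receptor of tumour necrosis factor, measured 38.2, 47.3 and 43.9 FPKM in the KO libraries, against 27.7, 25.2 and 25.1 FPKM in WT (log2 difference 0.70, limma adjusted p = 0.0018). The cytokine genes Tnf and Il1b fell, Tnf to 3.47 ± 0.974 FPKM in KO against 11.5 ± 3.00 FPKM in WT, and Il1b to 10.8 ± 4.18 FPKM in KO against 25.3 ± 0.445 FPKM in WT. Il6ra, the interleukin-6 receptor, fell to 26.8 ± 2.57 FPKM in KO against 37.0 ± 1.07 FPKM in WT (log2 difference -0.45, limma adjusted p = 0.0049). The receptor gene Il6st, named after its values were seen, went the other way. It measured 16.8, 21.4 and 24.0 FPKM in KO, against 14.5 to 15.6 FPKM in WT (log2 difference 0.44, limma adjusted p = 0.027). With the acinar covariate Il6st was not called (0.21, limma adjusted p = 0.092). Il6 itself, named after its values were seen, measured 5.55, 6.64 and 3.98 FPKM in the KO libraries, against 5.27, 3.44 and 2.83 FPKM in WT. Its groups overlapped and it was not called (limma adjusted p = 0.17). With the acinar covariate 3 of the 18 rose and 4 fell, against 13.4% and 9.98% of all tested genes in that fit. The count that rose is near its background. The 4 that fell are a larger share than theirs, and this difference was not tested.

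Of 14 genes of JAK kinases, STAT factors and their feedback inhibitors, all tested, 5 rose and 1 fell, against 20.3% and 19.6% of all tested genes. Stat3 measured 106, 110.3 and 108 FPKM in the KO libraries, against 64.1, 76.4 and 65.4 FPKM in WT (log2 difference 0.65, SE 0.08, limma adjusted p = 0.0016). These groups did not overlap, and KO replicate 1 was as high as the acinar-rich KO libraries. Jak2, a kinase of cytokine receptors, was at 19.5 ± 3.23 FPKM in KO and 9.27 ± 0.890 FPKM in WT (log2 difference 0.99, limma adjusted p = 0.0016). Jak1 and the phosphatase gene Ptpn2 also rose, by log2 differences of 0.31 and 0.28. With the acinar covariate, Stat3 (0.65, limma adjusted p = 0.0066) and Jak2 (0.96, limma adjusted p = 0.0080) were still called, and 4 of the 14 rose and none fell in that fit, against 13.4% and 9.98% of all tested genes.

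Of 29 listed STAT3 and acute-phase target genes, 15 were tested, of which 8 rose and 2 fell, against 20.3% and 19.6% of all tested genes (median log2 difference 0.61). With the acinar covariate 5 rose and 1 fell, against 13.4% and 9.98%. Cebpd, a transcription factor of the acute phase, was at 25.3 ± 3.26 FPKM in KO and 15.5 ± 2.53 FPKM in WT. Bcl3 was at 20.2 ± 3.93 FPKM in KO and 12.8 ± 0.271 FPKM in WT, and the complement gene C3 at 3.37, 7.98 and 3.64 FPKM in KO, against 1.43, 0.985 and 1.35 FPKM in WT. The kinase gene Pim3 fell to 22.0 ± 2.57 FPKM in KO against 39.9 ± 6.17 FPKM in WT. The liver-type acute-phase genes Saa1, Saa2, Saa3 and Orm1 were listed at 0 in all libraries.

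Of 24 listed antimicrobial and mucosal genes, 10 were tested and 3 rose, against 20.3% of all tested genes (median log2 difference 1.38). With the acinar covariate 2 rose and 1 fell, against 13.4% and 9.98% of all tested genes. Counts this near the background say nothing particular of the list. Sprr1a, a gene of squamous barrier proteins, measured 2.88, 18.8 and 12.05 FPKM in the KO libraries, against 0.139 to 0.365 FPKM in WT. Slpi, a secreted protease inhibitor, measured 3.49, 11.8 and 0.728 FPKM in KO, against at most 0.0564 FPKM in WT. The Paneth and goblet cell genes Ang4, Retnlb and Itln1, expressed in the gut beside Reg3b and Reg3g, were listed at 0 in all libraries. Of 32 listed genes of acinar injury and metaplasia, 30 were tested, of which 15 rose and 1 fell, against 20.3% and 19.6% of all tested genes (median log2 difference 0.62). Lgals3, which encodes galectin-3, measured 8.04, 20.1 and 9.69 FPKM in KO, against 1.59, 2.02 and 1.91 FPKM in WT (log2 difference 2.16, limma adjusted p = 0.0024). S100a6 rose by a log2 difference of 1.22, and Klf4 fell by 0.82 on the log2 scale. With the acinar covariate 11 of the 30 rose and 1 fell, against 13.4% and 9.98%. These lists share markers with duct cells, whose summed level was 1706, 2865 and 4372 FPKM in the KO libraries, against 1414 to 1567 FPKM in WT. Much of that rise was Tff2, whose KO values followed the order of the acinar level. Without it, a choice made after its values were seen, the sums were 1615, 1960 and 2235 FPKM in KO and 1270 to 1412 FPKM in WT. Slpi and Lgals3 were highest in KO replicate 2, as were Lyz2 and the B cell markers. The part of duct and immune cells in these rises was not tested.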

How the data were processed

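RNA sequencing of total RNA from islets gave 1 table per library. The deposited FPKM values were made by the authors with TopHat2 2.0.8b and Cuffdiff 2.1.1 on build mm10, per the submitters' processing notes. No source used here gives the annotation, the strand setting or any scaling of libraries. The values themselves lay on a scale of equal median ratios. Over genes above 0 in all libraries, each library's median ratio to the geometric mean was 0.995 to 1.005. The FPKM sums meanwhile ran from 416935 in KO replicate 1 to 1056340 in KO replicate 3. The files do not name the unit, and FPKM is taken from the tool and the values. Total depth is unknown, and values were used as deposited. Each title gives a library's group and number, and no label says that a number pairs a KO with a WT library. Rows with a mean of at least 1 FPKM (11669 of 23179) were tested on log2(FPKM + 1) with limma 3.58.1 in R 4.3.3 (trended prior, two-sided, no covariate, 4 residual degrees of freedom, Benjamini-Hochberg adjustment over all tested rows, threshold 0.05). Log2 differences are KO minus WT on this scale, which understates changes of low genes. Single values were tested with exact permutation tests (SciPy 1.17.1). The acinar level was the summed FPKM, or the mean log2(FPKM + 1), of 33 acinar genes. Transcripts and start regions were aligned globally with Biopython 1.88. Named genes were the 6 members, the 5 genes nearest to each by profile, and up to 4 genes per list by p; only part of these are described. The members and lists were chosen with earlier results of these data known. The limma fit was run on simulated data with the same spread for every gene in both groups. It does not cover the unequal spread seen here, such as that of Reg1 (SD 6871 FPKM in KO and 367 FPKM in WT). P-values measure the spread between these pooled islet preparations.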

Additional observations from a re-analysis of the deposited data

How the results depend on the processing

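The 16 alternatives were another pseudocount, 2 filters, a block for the replicate number, leaving out each library, KO replicate 1 alone, the acinar level as a covariate, 2 rescalings, a robust prior and array weights. The count of members called higher, 1 in the comparison as reported, was 0 to 4 with each library left out (4 without KO replicate 1), 2 with array weights (Reg1 at a limma adjusted p of 0.041, and Reg3g), and 0 with no filter, at a mean of at least 5 FPKM (where Reg3a and Reg3g were not tested), with a robust prior, with the acinar covariate and in KO replicate 1 alone; no member was called lower in any of them. The log2 difference changed sign in KO replicate 1 alone for Reg1 (-0.52), Reg2 (-1.43), Reg3a (-0.74), Reg3b (-0.15) and Reg3d (-0.67), and with the acinar covariate for Reg1 (-0.12), Reg2 (-1.13), Reg3a (-0.64) and Reg3d (-0.35). That of Reg3a also changed sign without WT replicate 3 or KO replicate 3 (-0.015 and -0.027, with a range of -0.027 to 1.43 over the libraries left out). That of Reg3g kept its direction in the 15 alternatives that tested it and lost its call in 8. Over all genes, 2368 were called higher and 2289 lower in KO, against 1381 to 2890 and 1100 to 2837 with each library left out, 1561 and 1165 with the acinar covariate, 1198 higher and 1779 lower with equal sums outside the acinar list (which moved the median log2 difference of all genes to -0.10), and 1267 lower in KO replicate 1 alone. The cause of these changes was not tested. Same-numbered libraries did not deviate together (correlations of -0.21, -0.09 and 0.03 for numbers 1, 2 and 3, and KO replicate 1 correlated best with WT replicate 2), and with the replicate block 3865 genes were called, against 4657 without it.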
